A study of Mus musculus with 6 samples.

Results

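The genes described here encode CD34, its sialomucin relatives and other surface antigens that separate early blood progenitors. They were taken as a list of 9 mouse genes, Cd34, Podxl, Spn, Cd164, Selplg, Ly6a, Slamf1, Cd48 and Eng, and every probe set annotated to exactly 1 of these symbols was used. Of the 9, 8 had a probe set, 1 each, among 34760 probe sets, of which the 21640 annotated to 1 symbol stood for 19937 genes. Ly6a, which encodes the stem cell antigen Sca1, had none of its own and was not analysed here. RNA came from pre-granulocyte-macrophage progenitors (PreGMs), a myeloid progenitor population, sorted from the bone marrow of female C57BL/6 mice. The comparison set 3 mice labelled Cebpa flox/flox against 3 labelled Cebpa flox/flox;Mx1Cre, with 1 Affymetrix array per mouse. Mice of both groups carried floxed Cebpa alleles and had been given pIC (polyinosinic-polycytidylic acid, an inducer of interferon) 18 days before sorting, so by their labels the groups differ in the Cre transgene. The labels give no age. The Mx1 promoter that drives Cre answers to interferon in many cell types and is not restricted to blood progenitors. The sort kept marrow cells that bore Kit but no lineage markers and stained for none of Sca1, CD150, CD41, FcγRII and endoglin.

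CD34 and podocalyxin are transmembrane sialomucins, proteins with a long, heavily O-glycosylated and sialylated outer part that can block adhesion or, with the right sugars, bind selectins. CD34 marks blood progenitors and endothelium, and its presence helps to separate myeloid progenitors of different stages. CD150 and CD48 belong to the SLAM group of receptors, whose patterns of display divide stem cells from multipotent and restricted progenitors, and endoglin separates the early myeloid and erythroid branches.

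Cebpa, the gene targeted in the study, was read first as a check of the labels. Its log2 levels were 6.93, 6.71 and 6.85 in the arrays labelled flox/flox and 8.71, 9.31 and 8.98 in those labelled Mx1Cre, a difference of 2.17 ± 0.14 log2 units (SE, limma adjusted p = 2.65e-05). The transcript was therefore higher in the libraries whose label carries the Cre, against what a deletion read by those probes would give. Where the probes lie relative to the floxed part was not used here. Directions are given by the deposited labels throughout, and an exchange of the group labels would turn each of them. Between arrays of the same label the correlation over genes was 0.992 to 0.995, and between labels 0.984 to 0.990.

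In the arrays labelled Mx1Cre, Cd34 was 2.01-fold higher and Cd48 1.36-fold lower, and the other 6 measured antigens, Podxl, Spn, Cd164, Selplg, Slamf1 and Eng, did not pass the test. The test was limma's, adjusted over all 19937 genes, with a gene called at an adjusted p under 0.05. Of the 8 antigens 1 was called higher and 1 lower, where over all genes 4.91% were called, 2.63% higher and 2.28% lower. For 3 of the 8, Cd34, Cd48 and Slamf1, the groups were without overlap, against 21.6% of all genes. The median difference of the 8 was -0.04 log2 units, beside -0.01 over all genes, and their median absolute difference 0.12, beside 0.096. These shares rest on 8 genes.

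The stretches just upstream of the transcription start sites of the pair that passed, and of Cd244a, the receptor gene for the Cd48 product that is described further on, are shown first because these are the genes on which the results turn. Each is the 250 bases before the start site the table uses, 5′ to 3′ on the plus strand, from RefSeq's table for GRCm38.p6, at chr1:194938571-194938820 for Cd34, chr1:171681742-171681991 for Cd48 and chr1:171558943-171559192 for Cd244a. For Cd48 that start lies inside the gene's full annotated span, downstream of its outermost start, while for Cd34 it is the outermost start. Of the 9 listed genes 6 were matched in that table. Capitals mark matches on either strand to the letters searched.
Cd34: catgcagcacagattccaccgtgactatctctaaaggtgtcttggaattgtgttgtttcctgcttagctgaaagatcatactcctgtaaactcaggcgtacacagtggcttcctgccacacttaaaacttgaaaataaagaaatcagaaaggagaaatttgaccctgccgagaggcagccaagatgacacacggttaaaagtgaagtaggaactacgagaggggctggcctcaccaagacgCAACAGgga
Cd48: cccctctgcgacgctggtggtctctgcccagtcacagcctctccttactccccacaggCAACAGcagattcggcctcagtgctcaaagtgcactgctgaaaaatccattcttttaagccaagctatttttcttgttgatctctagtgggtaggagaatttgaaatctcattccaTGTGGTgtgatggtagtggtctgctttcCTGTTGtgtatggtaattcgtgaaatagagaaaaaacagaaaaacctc
Cd244a: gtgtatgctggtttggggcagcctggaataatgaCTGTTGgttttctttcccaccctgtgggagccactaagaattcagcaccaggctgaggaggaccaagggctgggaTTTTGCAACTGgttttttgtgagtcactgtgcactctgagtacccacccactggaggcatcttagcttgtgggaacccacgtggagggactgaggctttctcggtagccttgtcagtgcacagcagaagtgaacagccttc
The letters searched were TTNNGNAA for C/EBP factors, GAGGAA for PU.1 and its ETS relatives, TGTGGT for RUNX factors, AGATAA for GATA factors, CAACNG for MYB and TATAAA for the TATA box. In the Cd34 stretch the single match was to the MYB letters, starting at position -9 from the start site. The Cd48 stretch held MYB letters at -192 and -48 and RUNX letters at -76. In Cd244a, C/EBP letters began at -141 and overlapped MYB letters at -136, and another MYB match began at -216. Over the 32851 stretches of the same length in the table, 36.8% held the C/EBP letters, 23.3% the PU.1 and ETS letters, 14% the RUNX letters, 9.99% the GATA letters, 29.3% the MYB letters and 12.4% the TATA box. A match describes letters and is not a binding site.

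Cd34 read 10.11, 10.45 and 10.29 in the 3 arrays labelled flox/flox and 11.42, 11.17 and 11.27 in the 3 labelled Mx1Cre. Every array labelled Mx1Cre lay above every array labelled flox/flox, and the gap between the groups was wider than the range within either. The means were 10.28 ± 0.17 and 11.29 ± 0.13 (SD, n = 3 each), well above the upper quartile of gene means (8.07, given as a guide to signal). The difference was 1.01 ± 0.11 log2 units (SE, 95% interval 0.76 to 1.25, limma adjusted p = 0.000692), or 1.69-fold to 2.38-fold over that interval. It ranked 99th of all genes by p. By an exact two-sided permutation test p was 0.1, which is the lowest value possible with 3 arrays in each group. Cd34 passed under all 16 alternatives tried, with differences from 0.92 to 1.09 and adjusted p from 0.000134 to 0.0233 (limma). In bulk RNA of a sorted population, a change in the share of expressing cells and a change in RNA per cell cannot be told apart. This holds for Cd34 and for any gene below.

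**Figure D1:**
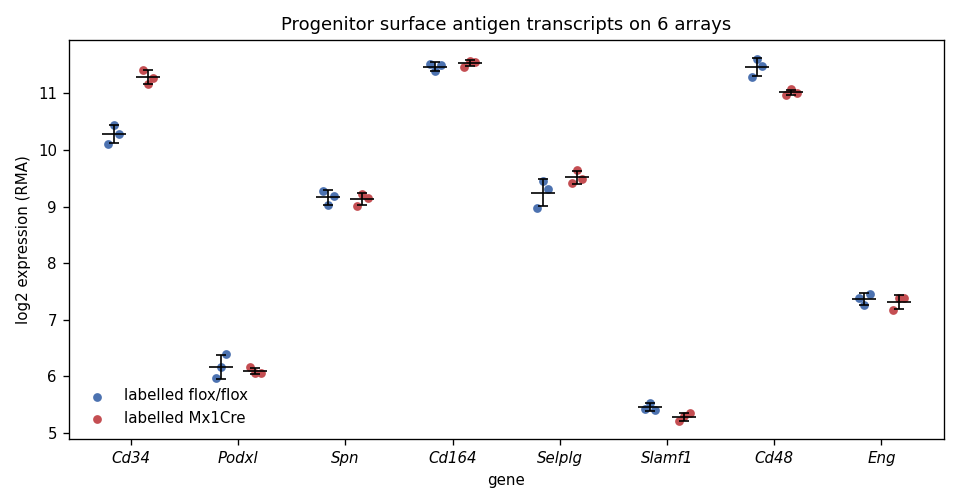
Log2 expression (RMA) of the 8 measured antigens on the 6 arrays, 3 labelled flox/flox in blue and 3 labelled Mx1Cre in red, with the mean and SD of each group as black bars; heights of different genes come from different probes and are not comparable. Cd34 was higher and Cd48 lower on every array labelled Mx1Cre than on any labelled flox/flox, Slamf1 showed a smaller gap, and the other 5 overlapped.

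The relatives of CD34 gave much smaller differences. Podxl, which encodes podocalyxin, known from kidney podocytes, endothelium and early blood cells, read 5.97, 6.16 and 6.39 in the arrays labelled flox/flox and 6.16, 6.07 and 6.06 in those labelled Mx1Cre. The Mx1Cre arrays all fell inside the range of the flox/flox arrays, at a level below the median of gene means (6.64). Its difference was -0.08 log2 units with a 95% interval of -0.33 to 0.18 (limma adjusted p = 0.843). Podxl2, which encodes endoglycan, the remaining family member, differed by -0.05 (interval -0.26 to 0.16, limma adjusted p = 0.888), also at a level below that median. Both intervals lie below that of Cd34. Set against each of the other 7 measured antigens array by array, the rise of Cd34 exceeded the change of the other gene by 0.74 log2 units for Selplg up to 1.45 for Cd48. The exact two-sided permutation p was 0.1 for each of the 7 pairs, before and after Benjamini-Hochberg adjustment over them, which is the floor for this design.

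The other leukocyte sialomucins of the list did not pass. Spn, which encodes CD43 or leukosialin, an abundant sialomucin of white cells, read 9.27, 9.02 and 9.19 in the flox/flox arrays and 9.01, 9.22 and 9.16 in the Mx1Cre arrays. These values interleaved, with a difference of -0.03 log2 units (interval -0.25 to 0.19, limma adjusted p = 0.944). Cd164, which encodes endolyn, a sialomucin of progenitors that also sits in lysosomal membranes, read 11.52, 11.39 and 11.51 against 11.47, 11.57 and 11.55. It was the steadiest of the 8, each group spanning at most 0.13 log2 units, and its difference was 0.06 (interval -0.13 to 0.25, limma adjusted p = 0.839). Selplg encodes PSGL-1, the main ligand of P-selectin on leukocytes. It read 8.98, 9.45 and 9.31 in the flox/flox arrays and 9.41, 9.64 and 9.49 in the Mx1Cre arrays, so the groups overlapped by 1 array on each side. The difference of 0.27 ± 0.13 (SE, interval -0.01 to 0.55) had a limma adjusted p of 0.329 and ran from 0.14 to 0.37 over the alternatives, passing in none.

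**Figure D2:**
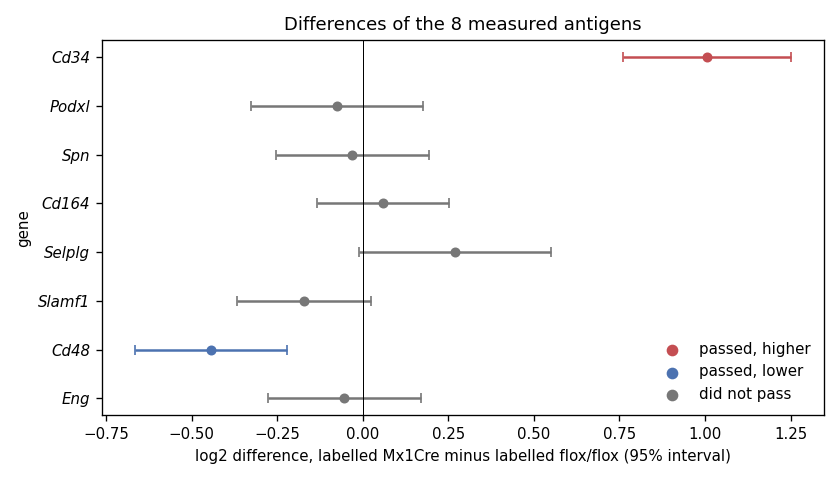
Log2 difference (arrays labelled Mx1Cre minus arrays labelled flox/flox) for each of the 8 measured antigens, with limma's 95% interval as the bar; red and blue mark genes that passed at an adjusted p under 0.05. The interval of Cd34 runs from 0.76 to 1.25 and that of Cd48 from -0.67 to -0.22, and the other 6 include 0.

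Of the 7 genes in a wider sialomucin list, which adds Cd24a, Emcn, Ptprc and Muc1 to these 3, 0 passed by limma, and 1 rose without Mx1Cre replicate 1. Ptprc and Emcn had unadjusted p-values of 0.0124 and 0.0497 (limma), the only members under 0.05. Ptprc, the CD45 phosphatase gene, was lower on every array labelled Mx1Cre (a difference of -0.26, limma adjusted p = 0.139). The enzymes that build the sugars of sialomucins went both ways. Of 26 such genes 3 rose and 2 fell, where 2.63% of all genes were called higher and 2.28% lower. The median difference of the 26 was 0.03 log2 units. Galnt3, one of the transferases that begin O-glycan chains, rose by 0.85 log2 units, from 5.69, 5.58 and 5.43 to 6.42, 6.61 and 6.21 (limma adjusted p = 0.00271). Tpst1, a tyrosine sulphotransferase of the kind that modifies PSGL-1, rose 1.68-fold (limma adjusted p = 0.0147), and the sialyltransferase gene St6galnac4 rose 1.39-fold (0.0275). C1galt1, which extends the first sugar into the core 1 chain, fell 1.51-fold (limma adjusted p = 0.0142), and Cmas, which activates sialic acid for transfer, fell 1.44-fold (0.0252).

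Leaving out 1 array ended several of these calls. Galnt3 passed in all 15 alternatives that held it. C1galt1 lost its call without flox/flox replicate 1 (limma adjusted p = 0.0551). Tpst1 lost its call without flox/flox replicate 1 (0.0504), Mx1Cre replicate 2 (0.0518) or Mx1Cre replicate 3 (0.0606). St6galnac4 was lost without flox/flox replicate 1 (0.0975), flox/flox replicate 3 (0.104), Mx1Cre replicate 2 (0.0874) or Mx1Cre replicate 3 (0.114). Cmas was lost without flox/flox replicate 1 (0.0931) or 3 (0.0944) and without Mx1Cre replicate 1 (0.0687), 2 (0.0541) or 3 (0.0733). The count of rising enzymes was 1 without flox/flox replicate 1, Mx1Cre replicate 2 or Mx1Cre replicate 3. The count of falling enzymes was 0 without flox/flox replicate 1, and 1 without flox/flox replicate 3 or without any 1 of the Mx1Cre arrays. With all probe sets in the fit Galnt3 alone of the 26 passed.

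Proteins that bind the tails of these antigens inside the cell showed 0 of 8 calls by limma, where 4.91% of all genes were called, so that so short a list shows no departure from the background. They include the membrane linkers encoded by Ezr, Rdx and Msn and the adaptor encoded by Crkl, which binds the CD34 tail. The lowest difference among the 8 was -0.26 and the highest 0.06 log2 units. Of the selectin genes only Sele, for E-selectin, had a probe set of its own. Sele is best known from activated endothelium. It rose 2.36-fold, from 7.12, 6.91 and 6.72 in the flox/flox arrays to 8.23, 8.10 and 8.13 in the Mx1Cre arrays (limma adjusted p = 0.000251), and passed under all 16 alternatives. Of 12 endothelial and stromal markers 0 rose and 1 fell by limma (Pdgfrb, which did not pass with all probe sets in the fit, at 0.0530). Their summed linear level ran from 2224 to 2541 in the flox/flox arrays and from 1918 to 2127 in the Mx1Cre arrays, and without Pecam1, which adds most to it, from 1114 to 1146 and from 981 to 1105. On average 2 of the 12 lay below the lower quartile of gene means (5.63). The part of such cells in the values of Sele, or of Cd34, Podxl and Eng, which endothelium also expresses, was not tested.

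Among the SLAM antigens, Cd48 was lower in the arrays labelled Mx1Cre. Cd48, which encodes a GPI-anchored ligand present on most progenitors beyond the stem cell, read 11.29, 11.60 and 11.49 in the flox/flox arrays and 10.97, 11.07 and 11.01 in the Mx1Cre arrays. The groups did not overlap, and the Mx1Cre arrays lay within 0.10 log2 units of each other. The fall from 11.46 ± 0.16 to 11.02 ± 0.049 (SD, n = 3 each) was -0.44 ± 0.10 log2 units (SE, 95% interval -0.67 to -0.22, limma adjusted p = 0.0329), and the exact two-sided permutation p was 0.1. The call was near the threshold. It was lost without flox/flox replicate 2 (limma adjusted p = 0.101) or 3 (0.111), without Mx1Cre replicate 1 (0.0788), 2 (0.0658) or 3 (0.114), and with all probe sets in the fit (0.147), though the difference stayed between -0.53 and -0.37 in all 16 alternatives. Slamf1, which encodes CD150, an antigen the sort excludes, was dim. It read 5.42, 5.53 and 5.41 against 5.21, 5.30 and 5.35, so every Mx1Cre array was lower, all below the lower quartile of gene means. Its difference of -0.17 (interval -0.37 to 0.02) did not pass (limma adjusted p = 0.383).

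The receptor gene of Cd48 and an adaptor gene also fell. Cd244a encodes CD244 (2B4), the receptor that binds the Cd48 product, and read 10.06, 9.65 and 9.70 in the flox/flox arrays and 9.27, 9.10 and 9.28 in the Mx1Cre arrays. It fell (-0.59 ± 0.12 log2 units, SE, limma adjusted p = 0.0214), with no overlap between groups. Sh2d1b1 encodes EAT-2, an adaptor that SLAM receptors recruit in innate lymphocytes, and has a close copy in the mouse genome whose transcripts its probes may also read. It fell 1.74-fold, from 7.88, 7.85 and 7.68 to 7.02, 6.86 and 7.12 (limma adjusted p = 0.00162), and passed under all 16 alternatives. Ly9, which encodes the SLAM receptor CD229, went the other way, from 8.51, 8.82 and 8.50 to 9.10, 9.42 and 9.03, a 1.49-fold rise (limma adjusted p = 0.0307). Without 1 array, Cd244a lost its call for flox/flox replicate 1 (0.0555), Mx1Cre replicate 2 (0.0715) and Mx1Cre replicate 3 (0.0569). Ly9 lost its call without flox/flox replicate 1 (0.112), flox/flox replicate 3 (0.120) or Mx1Cre replicate 2 (0.0854). With all probe sets in the fit neither passed (0.134 for Cd244a and 0.164 for Ly9, limma adjusted).

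In all, 1 of 12 SLAM family and adaptor genes rose and 3 fell, Cd48 included, beside 2.63% higher and 2.28% lower over all genes. The median difference of the 12 was -0.07 log2 units. The count of falls was 1 without Mx1Cre replicate 2 or 3. That of rises was 0 without flox/flox replicate 1, flox/flox replicate 3 or Mx1Cre replicate 2, and 2 without Mx1Cre replicate 1, where Slamf6 also passed (limma adjusted p = 0.0197), as it did with array weights (0.0266). In the full set of arrays Slamf6 differed by 0.42 and Cd84 by -0.30 log2 units (limma adjusted p 0.132 and 0.120), each without overlap between groups. Sh2d1a, the SAP adaptor gene, Cd2, Slamf7, Slamf8 and Slamf9 differed by between -0.08 and 0.18. By the RefSeq gene order, 7 of these receptor genes lie close together on chromosome 1, in the order Cd244a, Ly9, Slamf7, Cd48, Slamf1, Cd84, Slamf6. The fall of Cd244a stands next to the rise of Ly9, and both calls are among those lost without single arrays. Cd48, Slamf1 and Cd84, which follow each other among these 7, were each lower on all 3 Mx1Cre arrays, with Cd48 alone passing. Slamf6, next in the order, was higher on all 3. Over all genes 11% were lower and 10.5% higher without overlap.

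**Figure D3:**
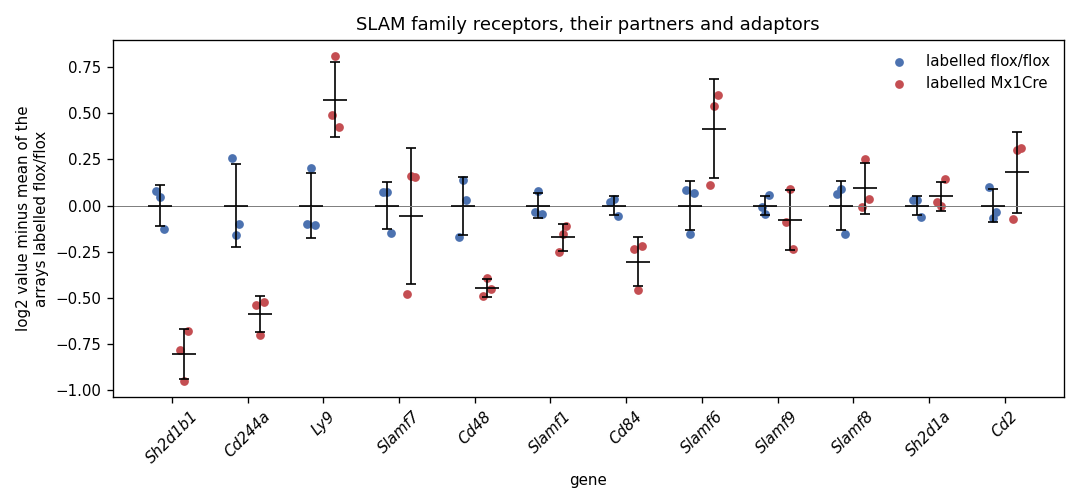
Log2 value of each SLAM family or adaptor gene on each of the 6 arrays minus the mean of its 3 arrays labelled flox/flox, with group means and SDs as black bars. Among genes that passed, Sh2d1b1, Cd244a and Cd48 lay below, and Ly9 above, the flox/flox arrays on all 3 arrays labelled Mx1Cre. Slamf1 and Cd84 also lay below, and Slamf6 above, on all 3, and did not pass.

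T, NK and innate lymphoid cells also display CD48 and CD244. Of 13 markers of these cells 5 fell, 0 rose and 8 did not pass in the same arrays, where 2.28% of all genes were called lower and 2.63% higher. Tox (-2.87 log2 units), Trat1 and Il7r led the falls and were the 3 that passed with all probe sets in the fit. The summed linear level of the 13 was 2320 to 2602 in the flox/flox arrays and 888 to 1029 in the Mx1Cre arrays, and without Tox, which adds most to it, 1022 to 1143 and 711 to 863. The defining T cell genes Cd3e, Cd3d and Cd3g and the NK genes Ncr1 and Klrb1c did not pass. Mast cell and basophil markers, another CD244-bearing lineage, had 3 of 11 genes higher and 4 lower, and summed levels of 6672 to 7807 and 3806 to 4641. Gzmb, Cyp11a1 and Cpa3 led the lower genes and Mcpt8, Hdc and Ms4a2 the higher ones. With all probe sets in the fit Ms4a2 (limma adjusted p = 0.0823) and Fcer1a, the remaining lower gene (0.109), did not pass. The part of such cells in the differences of Cd48, Cd244a and Sh2d1b1 was not tested.

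Eng encodes endoglin, a co-receptor for BMP and TGF-β ligands whose product the sort excludes. It read 7.39, 7.25 and 7.46 in the flox/flox arrays and 7.16, 7.38 and 7.39 in the Mx1Cre arrays. The groups overlapped. The difference was -0.05 log2 units (interval -0.28 to 0.17, limma adjusted p = 0.881). None of the 19 genes of its receptor complex and the SMAD pathway was called by limma, Eng included, and the range was -0.30 to 0.23. With 4.91% of all genes called, a list of that length would hold few calls in any case. The member of smallest p was Tgfbr2, the type II TGF-β receptor gene, at -0.23 (unadjusted p = 0.0285, adjusted p = 0.225). For the missing Ly6a, 9 relatives of the Ly6 family could be read, and 0 passed by limma. Ly6e, the brightest of them, gave 12.03, 11.85 and 12.02 against 11.76, 11.94 and 11.87. Its probe set does not stand in for Ly6a.

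In a wider list, 22 measured genes of antigens used to divide early progenitors showed 4 higher and 4 lower, Cd34 and Cd48 among them. Slamf1 and Eng were also on that list and did not pass. Over all genes 2.63% were called higher and 2.28% lower. The median difference of the 22 was -0.12 log2 units. Flt3, a cytokine receptor of early lymphoid and myeloid progenitors, was higher, reading 6.70, 8.33 and 7.15 in the flox/flox arrays and 9.73, 9.51 and 9.38 in the Mx1Cre arrays. Its flox/flox arrays were widely spread, but each lay below the Mx1Cre arrays (2.15 ± 0.32 log2 units, SE, limma adjusted p = 0.00402). Cd93, a lectin-like receptor of early progenitors, rose from 9.96, 10.18 and 9.89 to 10.86, 10.95 and 10.97 (limma adjusted p = 0.000686). Il7r, for the interleukin-7 receptor, fell from 6.80, 6.66 and 6.81 to 5.47, 5.53 and 5.88 (limma adjusted p = 0.000544). Cd9, a tetraspanin displayed on megakaryocyte-biased progenitors among others, fell 1.73-fold (limma adjusted p = 0.00819).

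Of the antigen genes named by the sort that had a probe set, Kit, Itga2b, Slamf1 and Eng did not pass and Fcgr2b did. Kit, selected by the sort, read 10.53, 10.36 and 10.50 against 10.69, 10.52 and 10.61, a difference of 0.15 log2 units (limma adjusted p = 0.513). Itga2b, for the excluded CD41, was lower on every Mx1Cre array but did not pass (-0.33, limma adjusted p = 0.108). Fcgr2b, for the excluded FcγRII, read 6.61, 6.73 and 6.88 against 7.05, 7.25 and 7.19, a rise of 0.43 (limma adjusted p = 0.0410). Fcgr3, a close relative, fell from 8.25, 8.33 and 7.83 to 6.82, 7.50 and 6.95 (-1.04, limma adjusted p = 0.00970). The call of Fcgr2b was lost without flox/flox replicate 1 (0.147), 2 (0.105) or 3 (0.0503) and without Mx1Cre replicate 2 (0.125) or 3 (0.140), and with median centring (0.0587). With all probe sets in the fit Fcgr2b (0.166), Fcgr3 (0.110), Flt3 (0.0781), Cd9 (0.0879) and Cd48 (0.147) did not pass, which left 2 antigens higher and 1 lower.

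**Figure D4:**
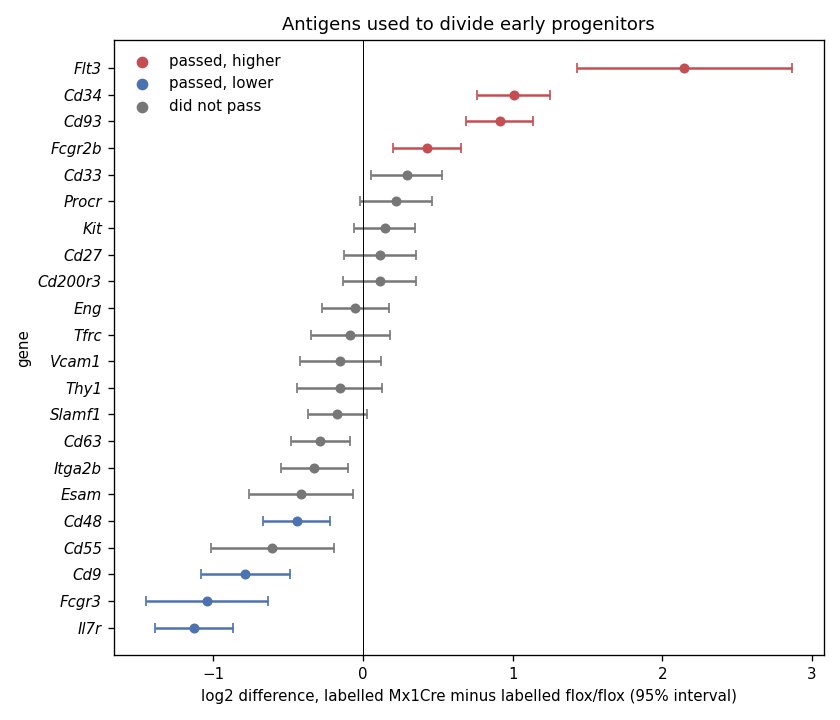
Log2 difference (arrays labelled Mx1Cre minus arrays labelled flox/flox) and limma's 95% interval for 22 genes of antigens used to divide early progenitors, ordered by difference. Flt3, Cd34, Cd93 and Fcgr2b passed as higher, and Il7r, Fcgr3, Cd9 and Cd48 as lower.

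Beside the rise of Cd34, markers of granulocyte-macrophage progenitors, a CD34-bearing stage, were higher. Of 13 genes 10 rose and 1 fell, led by Ly86, Clec12a and Irf8, where 2.63% of all genes were called higher and 2.28% lower. Their summed linear level was 6965 to 7049 in the flox/flox arrays and 14084 to 16290 in the Mx1Cre arrays. With all probe sets in the fit Mpo (limma adjusted p = 0.0594), Ms4a3 (0.0786) and Fcgr3, the gene that fell (0.110), did not pass. Stem and multipotent progenitor markers gave 2 of 15 genes higher, Hlf and Hoxa10, and 1 lower, Angpt1, with summed levels of 7421 to 7632 and 6223 to 6888. Without Angpt1, which adds most to it, the sum ran from 4043 to 4401 and from 4008 to 4573, so that the groups overlapped. Hoxa10 lost its call without any 1 of the flox/flox arrays or without Mx1Cre replicate 1 or 2 (limma adjusted p from 0.0513 to 0.0937), and Angpt1 was joined by another gene without flox/flox replicate 2. With all probe sets in the fit 0 of the 15 passed by limma, Hlf being at 0.0689, Hoxa10 at 0.121 and Angpt1 at 0.0523. Erythroid markers had 3 of 10 genes lower and 0 higher, with summed levels of 6478 to 8808 and 4727 to 5908. Of these 3, Rhag lost its call without flox/flox replicate 1 or 2, without Mx1Cre replicate 1 or 2, with array weights and with all probe sets (limma adjusted p from 0.0698 to 0.183). Megakaryocyte markers had 3 of 8 lower and 0 higher, with summed levels of 1904 to 1953 and 1199 to 1378. Cd9, among these 3, did not pass with all probe sets in the fit (limma adjusted p = 0.0879). Of 9 B lymphoid genes 0 passed by limma, and 1 fell without Mx1Cre replicate 2. The part of these populations in the differences of Cd34 and Cd48 was not tested.

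Interferon response genes were listed because pIC induces interferon and Ly6a is one of its targets. Of 18 such genes 1 was higher (Gbp3) and 5 were lower, led by Usp18, Ifitm1 and Rtp4. Over all genes 2.63% were called higher and 2.28% lower. Of the 5 lower genes, Ifit1 lost its call without flox/flox replicate 2 (limma adjusted p = 0.0678) or 3 (0.0817). Irf7 lost its call without flox/flox replicate 1 (0.0607) or 2 (0.0501). Without Mx1Cre replicate 3 both were lost (0.0709 for Ifit1 and 0.0638 for Irf7), and 3 genes were lower. With all probe sets in the fit Usp18 alone was lower (limma adjusted p = 0.0494), Ifitm1 and Rtp4 being at 0.0578 and 0.0744. The summed linear level of the 18 was 12831 to 13679 in the flox/flox arrays and 8106 to 11150 in the Mx1Cre arrays. Without Ifitm1, which adds most to it, the sum ran from 7047 to 7549 and from 6036 to 7686, so that the groups overlapped.

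Genes whose profiles over the 6 arrays were most like that of Cd34 were searched among 9967 others with a mean above the median, by the root mean square difference after centring each gene on its own mean. The closest 5 were Vav3 (0.068 log2 units), Myo5a, a myosin motor (0.069), Ccnd1, cyclin D1 (0.074), Coro7, a coronin (0.077), and Otulinl (0.078). Their differences ran from 0.88 for Myo5a to 1.09 for Ccnd1. Closest to Cd48 were Atp1b3, a sodium pump subunit (0.038), Zfp985 (0.047), Smc5, a chromosome maintenance protein (0.049), Pink1, a mitochondrial kinase (0.051), and Lig4, a DNA ligase (0.054). These likenesses include the difference between the groups and are descriptions.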

How the data were processed

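Total RNA of sorted PreGMs went through whole-transcriptome amplification and biotin labelling before hybridisation, 1 array per mouse, per the labels' protocols. The authors deposited log2 values, 1 per probe set and array, made with RMA and affy per the submitters' processing notes, with no version named. RMA corrects background, quantile normalizes and summarises probes, and it compresses folds of dim genes. Array medians lay between 6.43 and 6.55. Precision is limited by the number of arrays.

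The platform's annotation, possibly outdated, named 1 symbol for 21640 of 34760 probe sets, several for 1321 and none here for 11799. By Entrez number 21553 were found in the reference gene table. Where a gene had several probe sets (954 genes) the set of highest mean stood for it. The groups were compared by limma 3.58.1 under R 4.3.3 (lmFit, eBayes, no block) and adjusted by Benjamini-Hochberg over 19937 genes. The pipeline was tested on simulated data. Intervals are limma's 95% intervals, unadjusted. Lists are described by counts and medians, with no set test, and summed levels are sums of the antilogged values in arbitrary units. Promoter letters were matched on both strands.

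The genes described and all lists were chosen with earlier results of these data known. Named genes are the 9 antigens, Cebpa, up to 3 called genes per list and direction, the CD34 and SLAM families, gate antigens and the 5 closest profiles to each called antigen. Genes of smallest unadjusted p in lists without calls, and marker genes that did not pass, were named after their values were seen. So were Fcer1a, Ifit1 and Irf7, which lost their calls in some alternatives. Alternatives were the replicate number as a block, each array left out, cyclic loess, median centring, 2 filters on dim genes, 2 choices of probe set, an intensity trend with robust prior, array weights and a fit over all probe sets. The labels do not say that the replicate numbers pair the mice, so the numbers were not taken as pairs in the main fit. Same-numbered arrays of the groups deviated together with correlations of 0.188, 0.052 and 0.174 across genes, and differently numbered ones with -0.245 to 0.124. Whether the numbers mark pairs was not settled by these values.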

Additional observations from a re-analysis of the deposited data

How the results depend on the processing

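The 16 alternatives left the direction of Cd34, Cd164, Selplg, Slamf1 and Cd48 as it was wherever the gene was in the fit, and left Cd34 called. Podxl, Spn and Eng, none of them called, changed sign in 1, 2 and 1 alternatives. Podxl and Slamf1 fell below the filters on dim genes in 1 and 2 alternatives and have no value there. Cd48 lost its call with all probe sets in the fit (-0.44, limma adjusted p = 0.147). There limma's variance estimates and the adjustment both draw on all 34760 probe sets. When 1 array was left out the difference of Cd48 ran from -0.53 to -0.37. The number of the 8 antigens called lower was thus 0 to 1 without 1 array and 0 with all probe sets. Over all genes, the calls higher in the arrays labelled Mx1Cre numbered 525 and those lower 454. Without 1 array these were 268 to 455 and 226 to 359, and with all probe sets 141 and 103. With the replicate number as a block the counts were 602 and 487, Cd34 had an adjusted p of 0.00339 and Cd48 0.0282 (limma), and no call among the 8 antigens changed. Mx1Cre replicate 2 alone correlated better with another number (0.124, flox/flox replicate 3) than with its own (0.052). Of 576 counts over 18 lists, 525 were unchanged or stayed within 1.5 times the count reported and 51 moved. A count of 0 that stayed 0 was taken as unchanged, so the 525 include lists without calls. Median centring moved the median difference over all genes by 0.00030 log2 units and cyclic loess by 0.010. No detection call was used, so whether dim genes such as Slamf1 were above background was not tested.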
